A study of Mus musculus with 8 samples.

Results

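The genes *Tlr1*, *Tlr2*, *Tlr3*, *Tlr4*, *Tlr6*, *Tlr7*, *Tlr9*, *Tlr11* and *Tlr12*, which encode Toll-like receptors, and *Myd88*, which encodes the adaptor most of these receptors share, were followed in *Zeb1*-deleted hematopoietic stem and progenitor cells with and without EpCAM on their surface. These 10 genes, of 54532 in the deposited table, were selected by name when results of the same libraries were already known. The read counts compared here are therefore the values that chose them, and they are given as a description without a test. Of the 10 genes, 8 passed edgeR's filter on low counts, which kept 13560 genes in all, and *Tlr1* and *Tlr9* did not. *Tlr3* and *Tlr11* passed through the EpCAM+ libraries alone, so a difference between the groups was a condition of their passing.

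The cells were LSK cells, the lineage-negative, c-Kit-positive and Sca-1-positive fraction of bone marrow that holds stem and early progenitor cells, and EpCAM is an adhesion molecule of epithelia that served to sort them. They came from C57BL/6 mice aged 8 to 12 weeks with the genotype *Zeb1 fl/fl;Mx1-Cre+*, and RNA was taken on day 14 after pIpC dosing ended. One group was EpCAM-positive (4 libraries) and the other EpCAM-negative (4 libraries), the labels give 4 mice per genotype, and both groups had the deletion and the pIpC, so that control mice were not analysed here. *Mx1-Cre* is driven by an interferon-induced promoter and also deletes outside the blood lineages, and pIpC is a synthetic double-stranded RNA that induces interferon and is itself a ligand of *Tlr3*. Total counts were 15225714, 16743224, 17073546 and 15459106 reads in EpCAM+ replicates 1 to 4, and 15929923, 14114491, 15085883 and 14349327 reads in EpCAM- replicates 1 to 4. Values are CPM, read counts relative to library sizes scaled by edgeR's TMM method, where a single read corresponded to 0.0559 CPM in EpCAM+ replicate 3, the lowest, and 0.074 CPM in EpCAM- replicate 2, the highest.

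The targeted gene *Zeb1* had 363, 261, 373 and 290 counts in EpCAM+ replicates 1 to 4 and 214, 189, 157 and 129 counts in EpCAM- replicates 1 to 4. Counts over the whole gene do not separate deleted from intact transcripts. *Epcam*, the gene of the sorting marker, had 3580, 2831, 3053 and 2818 counts in the EpCAM+ group and 144, 51, 21 and 17 counts in the EpCAM- group. The LSK marker *Kit* had 3988 to 5870 counts in the EpCAM+ and 2096 to 3930 counts in the EpCAM- libraries. *Ly6a*, the gene of Sca-1, had 1786 to 5370 counts in the EpCAM+ and 214 to 1149 counts in the EpCAM- libraries, without overlap. Over all 13560 genes tested, 5779 (42.6%) passed an adjusted p of 0.05 with edgeR's quasi-likelihood test, 2961 (21.8%) higher and 2818 (20.8%) lower in EpCAM+ cells. The balance of directions moved with the scaling, to 3642 higher and 2083 lower with upper-quartile scaling and 3476 higher and 2066 lower with library totals, where the median log2 fold change of all genes was 0.11 in place of 0.02.

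Toll-like receptors bind conserved molecules of microbes, either at the cell surface (lipopeptides and lipopolysaccharide) or inside endosomes (RNA, DNA and protozoan profilin). Bound receptors recruit adaptors with a TIR domain, *Myd88* for nearly all of them and *Ticam1* for *Tlr3*, and kinases and ubiquitin ligases then activate NF-kB and interferon regulatory factors. The receptors are best known from macrophages and dendritic cells, but stem and progenitor cells of the bone marrow can also carry them and can respond to their ligands.

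Among the endosomal receptors, *Tlr3*, *Tlr11* and *Tlr12* had higher means in EpCAM+ cells, and in the same replicates. *Tlr11*, which binds profilin of *Toxoplasma* (ENSMUSG00000051969, chromosome 14 of GRCm38, 50357914 to 50363663), had 491, 45, 163 and 380 counts in EpCAM+ replicates 1 to 4. No read of *Tlr11* was counted in any of the 4 EpCAM- libraries. Replicates 1 and 4 were high and replicate 2 low, and the groups did not overlap. In CPM the EpCAM+ values were 32.1, 2.55, 9.11 and 24.6, with a mean of 17.1 ± 13.6 (SD, n = 4). Against a floor of 3 counts in each EpCAM- library, *Tlr11* was at least 81.9-fold higher by the EpCAM+ mean. That bound covers counting error in the EpCAM- group only, and not the spread of the EpCAM+ libraries.

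*Tlr3*, the receptor of double-stranded RNA (ENSMUSG00000031639, chromosome 8, 45395665 to 45411080), reached 33.8, 3.06, 8.83 and 43.8 CPM in EpCAM+ replicates 1 to 4, a mean of 22.4 ± 19.6 (SD, n = 4). In EpCAM- replicates 1 to 4 its counts were 6, 3, 7 and 0, or 0.269 ± 0.208 CPM (SD, n = 4). The lowest EpCAM+ value stood above the highest EpCAM- value, and replicates 1 and 4 were again the high ones. The fitted log2 fold change of *Tlr3* was 6.30 (SE 0.98), a size that rests on few reads in the EpCAM- group. Groups without overlap were found for these 2 of the 10 genes, and for 40.1% of all genes tested.

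*Tlr12*, which pairs with *Tlr11* in binding profilin (ENSMUSG00000062545, chromosome 4, 128615443 to 128618619), gave 13.4, 4.54, 3.80 and 13.6 CPM in EpCAM+ replicates 1 to 4. Its EpCAM- values were 4.18, 3.85, 2.18 and 3.16 CPM. EpCAM+ replicates 1 and 4 stood apart, while replicates 2 and 3 lay at the level of the EpCAM- libraries, so the groups overlapped. Between libraries of the same replicate number, the EpCAM+ one was higher in 4 of 4 pairs. The means were 8.82 ± 5.38 and 3.34 ± 0.88 CPM (SD, n = 4 each), with a log2 fold change of 1.39 (SE 0.43). With EpCAM+ replicates 1 and 4 left out together, a choice made after the data were seen, the log2 fold change of *Tlr12* was 0.31, that of *Tlr3* 4.39, and *Tlr11* was at least 27.9-fold higher.

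**Figure D1:**
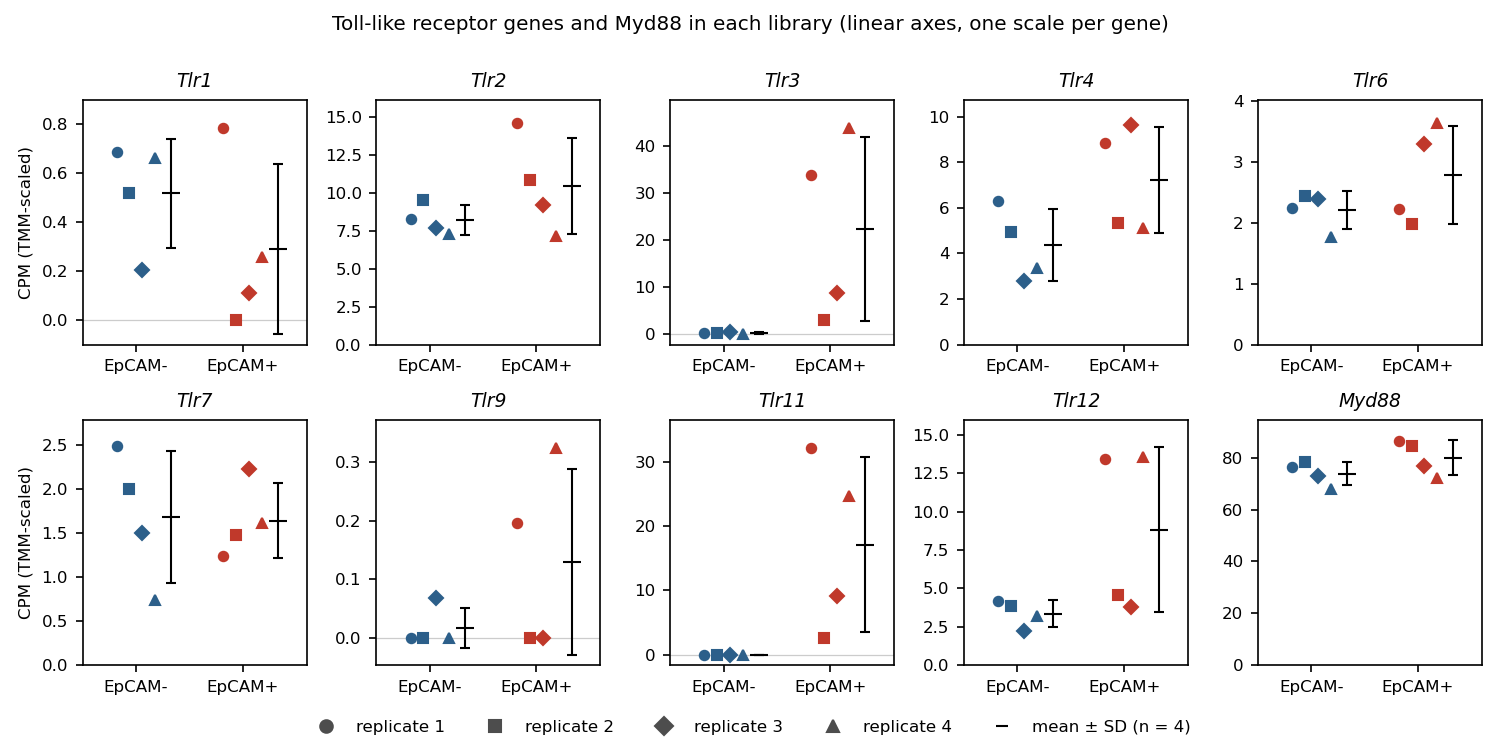
CPM of the 9 receptor genes and *Myd88* (linear axes, 1 scale per gene) in the 4 EpCAM- (blue) and 4 EpCAM+ (red) libraries, with a symbol for each replicate number and the mean ± SD (n = 4) beside the points. *Tlr3*, *Tlr11* and *Tlr12* were highest in EpCAM+ replicates 1 and 4, and *Myd88* lay between 68.0 and 86.5 CPM in all 8 libraries.

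Most markers of conventional dendritic cells were high in the same libraries. Of 10 such markers, 9 were tested, 7 of these were higher in EpCAM+ cells and none lower at an adjusted p of 0.05, and their median log2 fold change was 4.42, where all genes tested had 21.8% higher, 20.8% lower and a median of 0.02. *Xcr1*, *Clec9a*, *Batf3*, *Itgae* and *Cadm1* had EpCAM- means of only 0.156 to 0.407 CPM and passed the filter through the EpCAM+ libraries. A difference between the groups was thus a condition of their passing, which bears on these calls and on the median. The summed level of the 10 markers was 391, 88.8, 134 and 370 CPM in EpCAM+ replicates 1 to 4, and 59.9, 54.2, 52.6 and 52.4 CPM in EpCAM- replicates 1 to 4. The high and low replicates were thus those of *Tlr3* and *Tlr11*. The most abundant marker was *Wdfy4* in EpCAM- cells (30.3 CPM) and in EpCAM+ cells *Xcr1* (81.3 CPM), a chemokine receptor of cross-presenting dendritic cells, with 2251, 202, 640 and 2018 counts in EpCAM+ replicates 1 to 4 and 13, 2, 2 and 7 counts in EpCAM- replicates 1 to 4. *Zbtb46* and *Clec10a*, named after their values were seen, were not called. *Zbtb46* was also highest in replicates 1 and 4 of the EpCAM+ group (14.3, 1.87, 4.02 and 13.9 CPM in replicates 1 to 4). Its EpCAM- values reached the same level, with 4.93, 5.33, 14.7 and 16.6 CPM in replicates 1 to 4. *Clec10a* was highest in replicate 2 of both groups (19.3 and 17.1 CPM). No marker of this list was at 0 in all libraries of a group, although *Cd209a* had a single read in the EpCAM+ group. The part of such cells in the receptor values was not tested. In bulk samples, fewer cells of a type and less RNA per cell cannot be told apart.

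**Figure D2:**
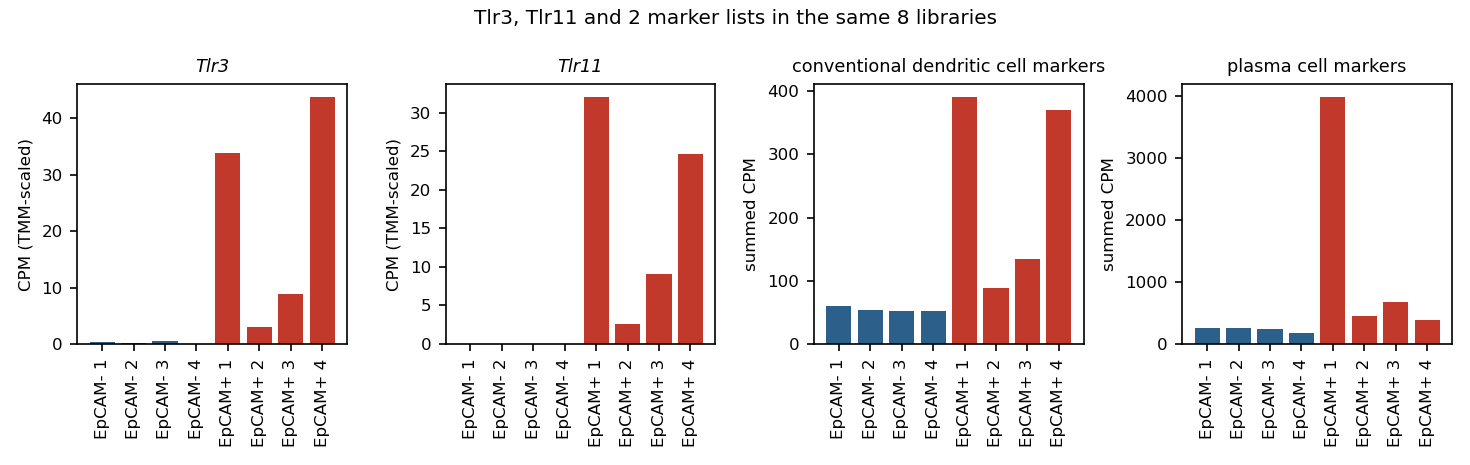
CPM of *Tlr3* and *Tlr11*, and summed CPM of 10 conventional dendritic cell markers and of 7 plasma cell markers, in each of the 8 libraries (linear axes from 0, blue EpCAM-, red EpCAM+). The dendritic cell sum was highest in EpCAM+ replicates 1 and 4 (391 and 370 CPM), as were both receptor genes, while the plasma cell sum was highest in EpCAM+ replicate 1 alone (3980 CPM).

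Likeness was measured over the 8 libraries as the root mean square difference of log2 CPM, each gene centred on its own mean. The genes most like *Tlr11* were *Xcr1* (0.59), *Gpr141b* (0.63) and *Asb2* (0.68). Those most like *Tlr3* were *Cldn1* (0.48) and *Cldn7* (0.51), both genes of tight junction proteins, and *Scimp* (0.59). For *Tlr7* and *Myd88*, the members with the lowest fitted fold changes, the nearest genes were *Dnase1* (0.19) and *Vrk3* (0.04). These distances describe 8 libraries of 2 groups and carry no test.

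The receptors of single-stranded RNA and of unmethylated DNA were low in both groups. *Tlr7* (ENSMUSG00000044583, chromosome X, 167304929 to 167330558) had 19, 26, 40 and 25 counts in EpCAM+ replicates 1 to 4 and 40, 27, 22 and 10 counts in EpCAM- replicates 1 to 4. In CPM the EpCAM+ values (1.24 to 2.24) lay inside the EpCAM- range, and the means were 1.64 ± 0.424 and 1.68 ± 0.751 (SD, n = 4 each). Its log2 fold change was -0.04 (SE 0.36) and changed sign among alternatives, to 0.05 with upper-quartile scaling and 0.04 with library totals. *Tlr9*, the DNA receptor, had 3, 0, 0 and 5 counts in the EpCAM+ group and 1 count in the whole EpCAM- group, too few for a fold. Among the receptor genes outside the 10, *Tlr13*, which binds bacterial ribosomal RNA, had 60, 2, 24 and 97 counts in the EpCAM+ group and 0, 2, 0 and 0 counts in the EpCAM- group, and was again highest in replicates 1 and 4. *Tlr5* and *Tlr8* had at most 1 count in any library. None of these 3 genes passed edgeR's filter with all 8 libraries. *Tlr13* was called higher by DESeq2, by edgeR with the filter of 1 count, and when EpCAM+ replicate 2 or any 1 of the EpCAM- replicates was omitted, where it passed the filter through EpCAM+ libraries alone and so had to differ.

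Among the surface receptors, *Tlr2* forms pairs with *Tlr1* or *Tlr6* that bind bacterial lipopeptides. *Tlr2* (ENSMUSG00000027995, chromosome 3, 83836272 to 83841767) had 14.6, 10.8, 9.22 and 7.13 CPM in EpCAM+ replicates 1 to 4, against 8.30, 9.54, 7.71 and 7.28 CPM in EpCAM- replicates 1 to 4. EpCAM+ replicate 1 was high and replicate 4 below every EpCAM- library. The log2 fold change was 0.35 (SE 0.21). *Tlr6* ranged from 1.99 to 3.63 CPM in the EpCAM+ group and from 1.76 to 2.44 CPM in the EpCAM- group, with a log2 fold change of 0.33 (SE 0.26). *Tlr1* had 12, 0, 2 and 4 counts in EpCAM+ replicates 1 to 4 and 11, 7, 3 and 9 counts in EpCAM- replicates 1 to 4, and the groups overlapped for all 3 genes. *Tlr1* and *Tlr6* are close relatives, and 8.85% of the 100-base windows of the longest *Tlr1* transcript also occur in *Tlr6*, so their counts are uncertain where reads fall in those stretches.

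*Tlr4*, the receptor of lipopolysaccharide (ENSMUSG00000039005, chromosome 4, 66827584 to 66930284), gave 8.83, 5.33, 9.61 and 5.12 CPM in EpCAM+ replicates 1 to 4. Its EpCAM- values were 6.30, 4.96, 2.80 and 3.38 CPM. Here replicates 1 and 3 were the high ones in the EpCAM+ group, unlike *Tlr3* and *Tlr11*, and EpCAM- replicate 1 reached into the EpCAM+ range. In all 4 pairs of the same replicate number the EpCAM+ library was higher. The log2 fold change was 0.72 (SE 0.30) and lay between 0.55 and 0.95 when single libraries were omitted.

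*Myd88* (ENSMUSG00000032508, chromosome 9, 119335934 to 119341411) varied least of the 10 genes. It had 86.5, 84.5, 76.8 and 72.1 CPM in EpCAM+ replicates 1 to 4 and 76.3, 78.2, 73.1 and 68.0 CPM in EpCAM- replicates 1 to 4. The ranges overlapped, and in each of the 4 replicate numbers the EpCAM+ library was the higher one. The log2 fold change was 0.11 (SE 0.08), and 0.20 with upper-quartile scaling or library totals. The coefficient of variation in the EpCAM+ group was 8.39% for *Myd88*, 25.8% for *Tlr7*, 61.0% for *Tlr12*, 79.7% for *Tlr11* and 87.4% for *Tlr3*. It was highest for *Tlr1* (120%) and *Tlr9* (122%), which had few counts. The whole *Myd88* gene lies within *Slc22a14* on the same strand, which had 0 counts in all 8 libraries, and it overlaps *Acaa1a* on the opposite strand, which had 1157 to 1619 counts per library, and the sources used here do not give how reads of overlapping genes were assigned.

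Levels of different genes were compared per kilobase of the gene length in the deposited table. In EpCAM+ cells the order by mean level was *Myd88* (31.1 CPM per kb), *Tlr11* (5.22), *Tlr3* (4.30), *Tlr2* (3.46), *Tlr12* (2.78), *Tlr4* (1.30), *Tlr6* (0.747), *Tlr7* (0.403), *Tlr1* (0.0863) and *Tlr9* (0.0374 CPM per kb). Only *Myd88* and *Tlr11*, and *Tlr7* and *Tlr1*, were neighbours whose libraries did not overlap in level. In EpCAM- cells *Myd88* came first (28.7 CPM per kb), followed by *Tlr2* (2.72), *Tlr12* (1.05), *Tlr4* (0.785), *Tlr6* (0.593), *Tlr7* (0.412), *Tlr1* (0.155), *Tlr3* (0.0516), *Tlr9* (0.00491) and *Tlr11* (0 CPM per kb). There the levels of *Myd88* and *Tlr2*, and of *Tlr2* and *Tlr12*, did not overlap, while every later pair of neighbours did. With the gene lengths that the authors' FPKM imply, an alternative chosen after the data were seen, the order changed in both groups. In EpCAM+ cells it became *Myd88* (50.0 CPM per kb), *Tlr3* (11.5), *Tlr11* (5.52), *Tlr12* (4.91), *Tlr4* (4.07) and *Tlr2* (3.46 CPM per kb), with the others after them as before. In EpCAM- cells *Tlr4* (2.46 CPM per kb) came before *Tlr12* (1.86 CPM per kb) and overlapped *Tlr2* (2.72 CPM per kb).

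The level of the 9 receptor genes summed per kilobase was 28.1, 8.24, 11.9 and 25.0 CPM per kb in EpCAM+ replicates 1 to 4 and 6.70, 6.61, 4.93 and 4.87 CPM per kb in EpCAM- replicates 1 to 4. *Tlr2* made up 17.2%, 43.6%, 25.6% and 9.45% of that sum in EpCAM+ replicates 1 to 4 and between 41.1% and 51.9% of it in the EpCAM- libraries. With the FPKM-implied lengths these shares were 10.3%, 27.2%, 14.7% and 5.14% in EpCAM+ replicates 1 to 4 and between 24.0% and 33.6% in the EpCAM- libraries. *Tlr3*, *Tlr11* and *Tlr12* were then left out, chosen after their values were seen for the largest SD in CPM per kb among EpCAM+ libraries. The other 6 receptors summed to 7.62, 5.45, 6.26 and 4.83 CPM per kb in EpCAM+ replicates 1 to 4 and 5.31, 5.36, 4.15 and 3.88 CPM per kb in EpCAM- replicates 1 to 4. The groups overlapped, and the EpCAM+ sum was the higher one in each of the 4 pairs of the same number. By gene, *Tlr3*, *Tlr4*, *Tlr11*, *Tlr12* and *Myd88* were higher in 4 of these pairs, *Tlr2* in 3, *Tlr6*, *Tlr7* and *Tlr9* in 2, and *Tlr1* in 1.

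Other genes of the pathway were grouped in 9 lists of 90 genes, of which 81 were tested. With edgeR's test, 30 of these were higher and 11 lower in EpCAM+ cells, and their median log2 fold change was 0.25, against 0.02 for all genes tested. These are 50.6% called, 37.0% higher and 13.6% lower, where all genes tested had 42.6%, 21.8% and 20.8%, the shares to hold beside each list that follows. Upper-quartile scaling gave 35 higher and 6 lower, while library totals gave 35 and 5. Without EpCAM+ replicates 1 and 4, which left 2 EpCAM+ libraries, 16 were higher and 7 lower, and without EpCAM+ replicate 3 alone 7 were lower. With replicates 1 and 4 left out, the calls over all genes also fell, from 5779 to 3675 (1819 higher and 1856 lower). That general loss of calls is to be held beside the same omission in each list. Genes of these lists beyond the naming rule were named after their values were seen.

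Among 11 tested genes of ligand-binding and accessory proteins, 4 were higher and 2 lower. Those higher were *Ly96*, which holds lipopolysaccharide for *Tlr4*, the scavenger receptor gene *Cd36*, and *Pld3* and *Pld4*, whose nucleases degrade the DNA and RNA that endosomal receptors sense. *Pld3* had a log2 fold change of 1.21 (SE 0.15, adjusted p = 0.000349) with no overlap of the groups. *Cd14*, a coreceptor of *Tlr4*, fell by 2.28 on the log2 scale (SE 0.36, adjusted p = 0.000951), from 35, 15, 21 and 17 counts in EpCAM- replicates 1 to 4 to 4, 4, 6 and 6 counts in EpCAM+ replicates 1 to 4. *Cd14* passed edgeR's filter through the EpCAM- libraries alone, so a difference was a condition of its passing. The filter of 10 counts gave it no value. The other lower gene was *Lbp*, and 1 gene in place of 2 was lower without EpCAM+ replicate 3 or 4 or EpCAM- replicate 1 or 2, with upper-quartile scaling, with library totals, or with the filter of 10 counts. Without EpCAM+ replicates 1 and 4, 2 in place of 4 were higher.

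For folding, transport and cleavage of the receptors, 3 of 14 tested genes were higher (*Ctss*, *Rab7b* and *Lgmn*) and 3 lower (*Hsp90b1*, *Tmed7* and *Lrrc59*). *Ctss*, the gene of cathepsin S, a protease of endosomes, had 3055, 865, 1132 and 2399 counts in EpCAM+ replicates 1 to 4 and 707, 597, 334 and 411 counts in EpCAM- replicates 1 to 4, without overlap in CPM. Its log2 fold change was 1.72 (SE 0.42, adjusted p = 0.00851). Without EpCAM+ replicates 1 and 4 it was 0.66 and no longer passed, the highest adjusted p among the alternatives, which ran from 0.00264 to 0.0761. None of the 3 higher genes passed without those 2 libraries. *Unc93b1*, which carries endosomal receptors from the endoplasmic reticulum, had 221, 84.0, 110 and 233 CPM in EpCAM+ replicates 1 to 4 against 144, 100, 84.6 and 85.4 CPM in EpCAM- replicates 1 to 4, and did not pass (adjusted p = 0.121).

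Of the TIR adaptors other than *Myd88*, 4 were tested, *Pik3ap1* was higher and *Ticam2* lower. *Ticam2*, which links *Tlr4* to *Ticam1*, fell by 0.41 on the log2 scale (SE 0.11, adjusted p = 0.0122), and with library totals or without EpCAM+ replicates 1 and 4 it did not pass (adjusted p 0.00375 to 0.114 over the alternatives). *Ticam2* (chromosome 18, 46559155 to 46574533) overlaps *Tmed7* (46560235 to 46597535), also lower, on the same strand. How reads of overlapping genes were assigned is not given, so these 2 calls may not be separate. Without EpCAM+ replicate 4, alone or with replicate 1, *Pik3ap1* was not called. *Ticam1*, the adaptor of *Tlr3*, gave 6.97 ± 1.97 CPM in EpCAM+ and 5.70 ± 1.79 CPM in EpCAM- cells (SD, n = 4 each) and did not pass (adjusted p = 0.393).

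The 20 tested kinases and ubiquitin ligases had 4 genes higher (*Map3k8*, *Peli1*, *Tab2* and *Tbk1*) and 3 lower (*Tank*, *Ube2n* and *Map3k7*). *Map3k8*, a kinase that feeds the ERK branch, had a log2 fold change of 1.64 (SE 0.27, adjusted p = 0.00128). *Irak1*, *Irak4* and *Traf6*, the core of the *Myd88* branch, had log2 fold changes of 0.09, -0.14 and 0.03, and none of the 3 passed. The counts depended on the libraries and settings. Those higher were 2 in place of 4 without EpCAM+ replicate 1 or 4 or EpCAM- replicate 3 and with the filter of 1 count, but 6 with upper-quartile scaling. Only 1 in place of 3 was lower without EpCAM+ replicate 1, 2 or 3 or EpCAM- replicate 3, and likewise with upper-quartile scaling or library totals.

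Interferon regulatory factors act at the end of these branches, and 2 of 4 tested were higher. *Irf5* had 1627, 409, 754 and 1531 counts in EpCAM+ replicates 1 to 4 and 309, 129, 128 and 155 counts in EpCAM- replicates 1 to 4. Its log2 fold change was 2.46 (SE 0.46, adjusted p = 0.0023), and 1.40 without EpCAM+ replicates 1 and 4, the high ones. *Irf7* rose by 1.67 on the log2 scale (SE 0.25, adjusted p = 0.000779). *Irf8*, a factor that dendritic cells require, had 475, 48.4, 117 and 388 CPM in EpCAM+ replicates 1 to 4 against 196, 158, 133 and 113 CPM in EpCAM- replicates 1 to 4. Replicates 1 and 4 lay above the EpCAM- libraries, replicate 3 among them and replicate 2 below them, and the gene did not pass (adjusted p = 0.282).

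Of 10 tested inhibitors of the pathway, 5 were higher (*Socs1*, *Sigirr*, *Cyld*, *Irak3* and *Tnfaip3*) and 1 lower (*Il1rl1*). *Socs1* had a log2 fold change of 1.07 (SE 0.21, adjusted p = 0.00285). *Il1rl1*, the receptor gene of interleukin-33, fell by 3.77 on the log2 scale (SE 0.38, adjusted p = 0.000179), with 11, 34, 17 and 33 counts in EpCAM+ replicates 1 to 4 and 195, 197, 391 and 346 counts in EpCAM- replicates 1 to 4. It is also a mast cell gene, and markers of mast cells and basophils were lower in EpCAM+ cells, 3 of 5 tested. Those 6 markers summed to 74.4, 74.7, 68.3 and 91.2 CPM in EpCAM+ replicates 1 to 4 and 231, 333, 491 and 337 CPM in EpCAM- replicates 1 to 4, with *Cpa3* the most abundant and *Cma1* at 0 in all EpCAM+ libraries, and their part in the *Il1rl1* difference was not tested. With the replicate block *Tnfaip3* was not called. The count of 5 higher inhibitors was 3 without any 1 of EpCAM+ replicates 1 to 4 or EpCAM- replicates 2 and 3 and with the filter of 1 count. Without EpCAM+ replicates 1 and 4 together, 2 inhibitors were higher and 2 lower.

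The interleukin-1 family uses the same adaptor, since its receptors also signal through *Myd88*. Of 7 tested genes of its receptors and ligands, 5 were higher and none lower with edgeR's test. *Il1rl1* also belongs to the family but was listed with the inhibitors, and counted here it made 5 higher and 1 lower of 8. *Il18* had 365, 312, 407 and 286 counts in EpCAM+ replicates 1 to 4 and 128, 87, 70 and 47 counts in EpCAM- replicates 1 to 4, a log2 fold change of 1.86 (SE 0.23, adjusted p = 0.00033). Its receptor gene *Il18r1* had a log2 fold change of 1.88 (SE 0.28, adjusted p = 0.00074). The decoy receptor gene *Il1r2* had 1.69 (SE 0.43, adjusted p = 0.00983), which was 2.35 without EpCAM- replicate 1 and did not pass without EpCAM+ replicates 1 and 4. *Il1r1* and *Il18rap* were the other 2 higher genes. The groups did not overlap for any of the 5, as for 40.1% of all genes tested, and 3 of the 7 were called higher without EpCAM+ replicates 1 and 4.

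A list of cytosolic sensors, which held nucleic acid sensors and the peptidoglycan sensors *Nod1* and *Nod2*, had 6 of 11 tested genes higher and 1 lower. Without *Nod1* and *Nod2*, 5 of 9 were higher and 1 lower. *Ddx58*, the gene of RIG-I, had a log2 fold change of 1.26 (SE 0.23, adjusted p = 0.00215), and *Zbp1* one of 1.71 (SE 0.32, adjusted p = 0.00222). *Ifih1*, whose product MDA5 binds long double-stranded RNA such as pIpC, had 15.6, 15.5, 15.2 and 13.8 CPM in EpCAM+ replicates 1 to 4 and 11.8, 8.88, 10.2 and 8.02 CPM in EpCAM- replicates 1 to 4. Unlike *Tlr3*, *Ifih1* was at a like level in all 4 EpCAM+ libraries, and its log2 fold change was 0.62 (SE 0.14, adjusted p = 0.00535). *Nod2* had 50, 49, 52 and 24 counts in the EpCAM+ group and 8, 16, 2 and 3 counts in the EpCAM- group, a log2 fold change of 2.36 (SE 0.52, adjusted p = 0.00509) that was 3.13 without EpCAM- replicate 2. With so few EpCAM- counts, *Nod2* passed edgeR's filter through the EpCAM+ libraries, which favoured a difference. The filter of 10 counts gave it no value. The lower gene was *Mavs*, and it was not called without EpCAM+ replicate 2, 3 or 4 or EpCAM- replicate 1 or 2, with upper-quartile scaling, with library totals, or with the filter of 10 counts. Without EpCAM+ replicates 1 and 4 together *Mavs* was not called either.

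Other cell types that express Toll-like receptors were followed through their markers. Of 10 plasmacytoid dendritic cell markers, 5 were tested, 2 were higher and 1 lower, with sums of 292, 217, 237 and 227 CPM in EpCAM+ replicates 1 to 4 and 218, 246, 200 and 176 CPM in EpCAM- replicates 1 to 4. Without *Bst2*, the most abundant, and *Tcf4*, the other 8 summed to 63.4, 10.1, 12.4 and 20.0 CPM in EpCAM+ replicates 1 to 4. The groups overlapped for this sum, with EpCAM- replicate 2 above EpCAM+ replicates 2 and 3, and the other 3 EpCAM- libraries at 4.41 to 7.68 CPM. Of these 8 markers, *Ly6d* made up most of the sum in replicate 1 and was called higher with replicate 4 the lowest of its group (49.6, 7.54, 6.93 and 5.25 CPM in EpCAM+ replicates 1 to 4), and *Cox6a2* was called lower. *Ccr9*, *Cd300c*, *Pacsin1* and *Siglech* were highest in EpCAM+ replicates 1 and 4, and these markers were named after their values were seen. *Klk1* was at 0 in all 8 libraries, and the defining marker *Siglech* had 33, 3, 12 and 14 counts in the EpCAM+ group and 5, 1, 0 and 0 counts in the EpCAM- group. Of 10 monocyte and macrophage markers, 8 were tested, 4 were lower and none higher, with sums of 422, 90.8, 137 and 236 CPM in EpCAM+ replicates 1 to 4 and 936, 265, 489 and 306 CPM in EpCAM- replicates 1 to 4. *Ly6c2* was the most abundant of them, none was at 0 in all libraries of a group, and *Cd14*, a gene of monocytes, was lower in the same direction. Neutrophil markers, of which 8 of 10 were tested, had 3 lower and none higher, with *Mpo* the most abundant and sums of 802 to 1360 CPM in the EpCAM+ group against 9990 to 15800 CPM in the EpCAM- group. Without *Mpo* and *Elane*, the other 8 summed to 79.8 to 148 CPM in the EpCAM+ group and 47.4 to 201 CPM in the EpCAM- group.

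Among B cell markers, 5 of 10 were tested and 2 were higher, the most abundant was *Cd79b*, and *Pax5* was at 0 in all 8 libraries. They summed to 125, 80.2, 76.3 and 89.3 CPM in EpCAM+ replicates 1 to 4 and 59.7, 84.1, 55.9 and 49.6 CPM in EpCAM- replicates 1 to 4, and without *Cd79b* to 7.26 to 55.5 CPM in the EpCAM+ group, lowest in replicate 2 and highest in replicate 1, and 4.78 to 7.84 CPM in the EpCAM- group. *Ms4a1*, called higher, had 196, 21, 41 and 112 counts in EpCAM+ replicates 1 to 4 and 2 counts in the whole EpCAM- group. It passed edgeR's filter through the EpCAM+ libraries alone, as did *Ccr9*, *Jchain* and the plasma cell gene *Mzb1*, called higher. A difference was thus a condition of their passing. *Ly6d* passed through the EpCAM+ libraries and the neutrophil gene *Mmp8*, called lower, through the EpCAM- libraries, which favoured a difference. Plasma cell markers, led by *Jchain* in EpCAM+ and by *Xbp1* in EpCAM- cells, had 3 of 5 tested genes higher and sums of 3980, 453, 673 and 388 CPM in EpCAM+ replicates 1 to 4 against 171 to 259 CPM in the EpCAM- group. T and NK cell markers, with *Nkg7* the most abundant, had 2 of 3 tested genes higher and sums of 686 to 853 and 702 to 911 CPM, or without *Nkg7* 55.6 to 67.3 and 17.9 to 29.7 CPM, and *Cd3e* and *Ncr1* were at 0 in the EpCAM- group. Erythroid and megakaryocyte markers, with *Klf1* the most abundant in EpCAM- and *Pf4* in EpCAM+ cells, had 2 of 10 genes higher and 4 lower and sums of 166 to 439 CPM in the EpCAM+ group and 357 to 948 CPM in the EpCAM- group. Of the 11 markers of the LSK compartment, 9 were higher and none lower, *Cd34* was the most abundant, and the sums were 2870 to 3120 CPM in the EpCAM+ group and 1500 to 2300 CPM in the EpCAM- group. The sums of the monocyte and B cell lists were also highest in EpCAM+ replicates 1 and 4 within that group, as was the monocyte gene *Ccr2* (101, 8.05, 28.3 and 90.7 CPM in EpCAM+ replicates 1 to 4). Without its most abundant gene, the sums of the groups did not overlap for the lists of LSK, conventional dendritic, neutrophil, T and NK, and mast cell markers, and overlapped for the other 5 lists. *Wdfy4*, *Xbp1*, *Pf4*, *Ms4a1*, *Mzb1*, *Mmp8* and *Ccr2* were named after their values were seen. By the paper's methods, the lineage antibodies used for LSK cells were against markers of myeloid, erythroid, B and T cells. The part of any of the listed cell types in the receptor values was not tested.

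The promoters of the 3 receptor genes that were high in the same libraries are shown for comparison. Of the 10 genes, 8 matched the RefSeq promoter table (GRCm38.p6), with 10 entries, and *Tlr4* and *Tlr7* had no entry under those names. The 250 bases before each start were searched on both strands for CACCTG, the E-box form that Zeb1 binds, for GAAANNGAA, a core of sites of interferon regulatory factors, and for GAGGAAGT, a form of the site of PU.1. Of 32851 promoters of this length, 17.2%, 7.13% and 2.44% held the 3 motifs. Capitals mark a match, on either strand, and run together where matches overlap. The *Tlr11* stretch lies at chr14:50357664-50357913, plus strand, *Tlr3* at chr8:45410381-45410630, minus strand, and *Tlr12* at chr4:128618620-128618869, minus strand, each written 5′ to 3′ along the gene.
Tlr11: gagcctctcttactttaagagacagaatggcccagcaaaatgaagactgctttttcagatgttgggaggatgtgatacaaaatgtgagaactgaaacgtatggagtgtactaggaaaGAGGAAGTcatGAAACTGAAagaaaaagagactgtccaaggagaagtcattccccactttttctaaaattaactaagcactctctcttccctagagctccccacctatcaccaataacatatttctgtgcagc
Tlr3: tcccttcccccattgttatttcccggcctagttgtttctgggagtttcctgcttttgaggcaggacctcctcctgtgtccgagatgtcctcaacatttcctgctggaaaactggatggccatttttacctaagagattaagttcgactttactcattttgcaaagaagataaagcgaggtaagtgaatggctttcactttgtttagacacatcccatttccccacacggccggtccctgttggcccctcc
Tlr12: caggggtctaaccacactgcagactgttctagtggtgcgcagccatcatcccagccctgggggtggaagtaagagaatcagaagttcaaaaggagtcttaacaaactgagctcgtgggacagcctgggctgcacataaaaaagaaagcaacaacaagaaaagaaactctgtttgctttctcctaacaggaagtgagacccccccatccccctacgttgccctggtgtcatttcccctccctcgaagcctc
*Tlr11* held 1 match to GAAANNGAA and 1 to GAGGAAGT, while the letters of the 3 motifs were not in the *Tlr3* and *Tlr12* stretches. CACCTG occurred once each in *Tlr2*, *Tlr9* and 1 of the 2 *Tlr1* entries. GAAANNGAA occurred 2 times in 1 of the 2 *Tlr6* entries and once in *Myd88*, and GAGGAAGT occurred once in the *Tlr1* entry that held CACCTG. A match describes letters and not a bound site, and a missing match says only that these letters are not in the stretch. The *Tlr3* stretch lies inside the gene as counted, whose 5′ end is at 45411080, since the RefSeq start lies further in. The same holds for *Myd88*, and wholly or in part for the entries of *Tlr1*, *Tlr2* and *Tlr6*.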

How the data were processed

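RNA was amplified with SMART-Seq v4 from 4 EpCAM+ and 4 EpCAM- samples, and libraries were made from 1 ng of cDNA and sequenced as 150-bp paired ends. The authors removed low-quality reads, aligned the rest to GRCm38.p6 with STAR (2.6.1d) and deposited read counts per gene from featureCounts (1.5.0-p3), without normalization, on which all values rest. The annotation release, strandedness and treatment of reads of several genes are not given in the sources used here. The authors' FPKM served only to derive gene lengths for an alternative, and the deposited gene length, another column, equals the union of exons in GENCODE M21 for the 10 genes. The authors' log2 fold changes and p-values (DESeq2 1.20.0, for the 2 groups and for pairs of single libraries) were not used.

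Counts were filtered with filterByExpr, scaled by TMM and tested with edgeR 4.0.16 in R 4.3.3 (quasi-likelihood test, two-sided, Benjamini-Hochberg, threshold 0.05). Standard errors (SE) came from the F statistic. The procedure was also run on simulated data, and no result given here rests on that run. The fold of a gene at 0 in a group was bounded with a floor of 3 counts per library. The floor covers counting error in that group only, and not the spread among libraries of the other group. The 10 genes and all lists were chosen with earlier results of these data known. Genes were named by rule: per pathway list, those past the threshold without overlap and with a log2 fold change of at least 1 in size, up to 4 per direction by adjusted p, or else the gene with the smallest adjusted p, and per marker list the most abundant gene (by the higher group mean) and those at 0 in a group. Alternatives were DESeq2 1.42.0, 3 other scalings, 2 other filters (1 count in any library, 10 in every library), a block for replicate number, omission of single libraries, omission of EpCAM+ replicates 1 and 4 together, and other gene lengths.

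Replicate numbers were taken to pair the samples from the data, since the labels do not state it. The main fit and its SEs and adjusted p-values leave the pairing out, and the block is an alternative fit. Same-numbered libraries deviated together from their group means (correlation across genes 0.205 to 0.356 in 4 pairs, against -0.216 to 0.0396 in 12 pairs of different number). Genes are not independent replicates. No 2 libraries of a group were duplicates (chi-square per degree of freedom 9.8 to 91.7).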

Additional observations from a re-analysis of the deposited data

Results flagged for a closer look

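In 3 of 59 groups of 4 libraries, a single library stood far from the others in CPM, by a rule that flags about 1 in 20 groups of continuous values. *Tlr9* had 1 read in EpCAM- replicate 3 (0.0683 CPM) and none in the other 3 EpCAM- libraries. *Tlr5* had 1 read in EpCAM- replicate 1 (0.0624 CPM), and *Tlr13* had 2 reads in EpCAM- replicate 2 (0.148 CPM), each with none in the other 3 libraries of the group. All 3 values rest on 1 or 2 reads. Where the other 3 libraries are at 0 the rule flags any read, so the rate of 1 in 20 does not apply to them.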

How the results depend on the processing

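The fitted log2 fold changes of *Tlr2*, *Tlr3*, *Tlr4*, *Tlr6*, *Tlr12* and *Myd88* were positive under every alternative that gave a value, and that of *Tlr7* was positive in 8 and negative in 8 of 16. The filter of 10 counts in every library removed *Tlr3* and *Tlr11*, and the named pathway genes *Cd14* and *Nod2*, and gave them no value. With EpCAM+ replicates 1 and 4 left out, a choice made after the data were seen, the log2 fold change was 4.39 for *Tlr3* and 0.31 for *Tlr12*, the lower bound for *Tlr11* was 27.9-fold (the fit gave a log2 value of 9.50, which against 0 counts is set by the prior count and measures no size), 3675 genes were called (1819 higher and 1856 lower), and of the pathway genes 16 were higher and 7 lower. That fit has fewer samples. Of the pathway genes 6 were lower with upper-quartile scaling and 5 with library totals, where the median of all genes was 0.11, and omission of single libraries gave 7 to 10, the lowest without EpCAM+ replicate 3. For both scalings and that library the cause was not tested. With the replicate block, the paired fit, 6818 genes were called, 31 pathway genes were higher and 13 lower, and all 15 genes named by rule were still called. Of the others *Tnfaip3* lost its call, *Hmgb1*, *Tab1*, *Tnip1* and *Aim2* gained one, and no other pathway call changed. DESeq2 called 6416 genes.

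Of 238 values of the 15 named pathway genes under alternatives, 234 kept their direction and call, and 4 kept the direction and lost the call (*Ctss*, *Il1r2* and *Ticam2* without EpCAM+ replicates 1 and 4, *Ticam2* also with library totals). With the FPKM-implied length, 13 of 20 levels per kilobase moved beyond 1 SD, and the mean *Tlr2* share of the receptor sum went from 24.0% to 14.3% in EpCAM+ and from 47.6% to 29.8% in EpCAM- cells. The GENCODE length equals the deposited one, so it could move none. *Tlr1*, *Tlr5*, *Tlr8* and *Tlr9* did not pass edgeR's filter and have no value in the main fit. With the filter of 1 count, the log2 fold change was 0.60 for *Tlr5* and -0.19 for *Tlr8*. Neither gene was called, and both values rest on very few reads. How small a difference could be found for the genes outside the main fit was not tested.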
